A study of Rattus norvegicus with 3 samples.

Results

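Transcript levels of 10 genes of PDGF, HGF and EGF signalling were set against each other in iPS F65, a line of induced pluripotent stem (iPS) cells from the rat, and in mix1, RNA of mixed adult rat cells. The genes are the ligand genes Pdgfa, Pdgfb, Pdgfc, Csf1 and Hgf and the receptor genes Pdgfra, Pdgfrb, Met, Egfr and Erbb3. They were found by gene name among the probes of the array, which gave 12 probes for 10 genes, of 41012 probes and 35493 gene names in all. Every member was found under its current symbol.

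RNA of 3 untreated iPS F65 samples was labelled with Cy3. Each was hybridised to its own 2-colour array against mix1, which was labelled with Cy5 and combined cultured rat bone marrow cells with primary fibroblasts of the ear. The iPS cells were kept on a feeder layer of irradiated mouse embryonic fibroblasts in medium with fetal bovine serum and serum replacer, and the adult cells were grown in other media with fetal bovine serum. The strain and age of the animals, the reprogramming factors and the passage of the line are not given in the sources used here, and F65 is 1 line. The comparison asks how the iPS cells differ in expression from the adult cells.

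Growth factors of these families are secreted or membrane-bound proteins that bring 2 receptor chains together, which switches on the tyrosine kinases inside the cell. PDGF acts mainly on connective tissue cells, which carry the alpha and beta receptors. HGF is made by mesenchymal cells and acts on Met, often carried by epithelia. Egfr and Erbb3 belong to the ErbB family, in which Erbb3 has little kinase activity and signals through a partner such as Erbb2. Csf1, which macrophages need to survive, signals through Csf1r, a close relative of the PDGF receptors.

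What the array measured for each gene was a 60-base probe, and 5 of these probes, of ligand and receptor genes, are shown. The Egfr probe shown is the dimmer probe of that gene, and the call of Egfr rests on the brighter. The Pdgfb probe could not be tested. The probes shown lie in the coding part of their transcripts. In the Pdgfa and Pdgfb probes, capitals mark the longest run of bases that both share.
Pdgfa: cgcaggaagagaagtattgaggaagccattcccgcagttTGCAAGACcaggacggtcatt
Pdgfb: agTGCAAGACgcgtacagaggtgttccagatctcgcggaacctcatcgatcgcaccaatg
Hgf: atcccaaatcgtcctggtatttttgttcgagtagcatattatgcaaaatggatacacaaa
Egfr: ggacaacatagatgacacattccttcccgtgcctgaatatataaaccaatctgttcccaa
Met: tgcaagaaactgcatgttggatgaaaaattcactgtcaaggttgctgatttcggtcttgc
The shared run was 8 bases long, so the probes of these paralogous ligands had little sequence in common. The array design placed its probes on the rat build rn3. The Pdgfa probe was placed at chr12:16190596-16192810, the Pdgfb probe at chr7:118283820-118283879 and the Hgf probe at chr4:14864538-14864597. The Met probe was placed at chr4:43349485-43350701 and the Egfr probe shown at chr14:97805934-97806644. Spans of 2215, 1217 and 711 bases for the Pdgfa, Met and Egfr probes mean that these probes join sequence from separate exons.

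A probe was tested where the scanner software flagged it as well above background in 1 or both channels, on each of the 3 arrays. That held for 7 of the 10 members and for 21765 genes in all. A gene was called where limma gave a Benjamini-Hochberg adjusted p under 0.05 and the mean log2 ratio of iPS F65 over mix1 was at least 1 (a 2-fold change) in size. Of all genes tested, 6723 (30.9%) were called higher and 5330 (24.5%) lower in iPS F65. Either call was made for 12053 genes (55.4%). Of the 7 members tested, Met was called higher, and Pdgfra, Pdgfrb, Pdgfa, Csf1, Egfr and Hgf were called lower. Met passed the filter only through iPS F65 and Hgf only through mix1, so for both the filter favoured the direction called. The same holds for every gene given below with only a bound. The median log2 ratio was -6.53 over the 7 members and 0.25 over all genes tested. Of all called genes, 55.8% were higher with the scanner software's dye normalization and 41.2% with a loess normalization after another background correction, which moved the median of all genes to -0.08. In mixed RNA, fewer cells of a type and less RNA per cell cannot be told apart. iPS F65 carried the same dye on every array, so a dye effect and the difference between the cells cannot be told apart either.

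**Figure D1:**
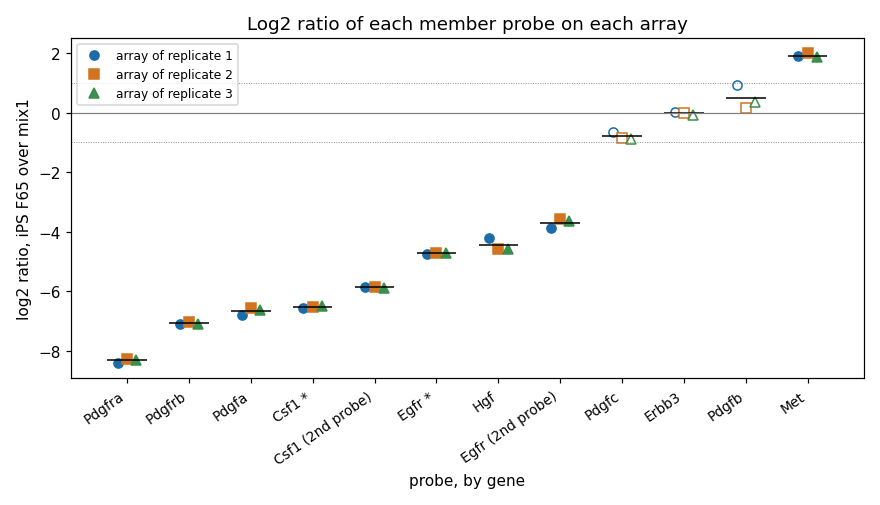
Log2 ratio of iPS F65 over mix1 (y axis) for each of the 12 probes of the 10 genes (x axis), with 1 point for each of the 3 arrays and a bar at their mean. Filled points are probes that were tested, open points are probes not well above background on all arrays in either channel, an asterisk marks the brighter of 2 probes of a gene, and dotted lines mark a 2-fold change. Pdgfra is lowest at -8.32 and Met highest at 1.92, and the 3 arrays lie close together for every tested probe.

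The PDGF receptor genes had the largest decreases of the members. Pdgfra, which encodes the alpha receptor that binds all the PDGF-A, B and C chains, gave processed signals of 242.6, 302.6 and 309.2 in iPS F65 on the arrays of replicates 1, 2 and 3. In mix1 its signals were 81720, 94140 and 97120. Every mix1 value was far above every iPS value, and both channels were well above background on all 3 arrays. The log2 ratio was -8.32 ± 0.06 (SD, n = 3), a 320.5-fold decrease (limma, adjusted p = 5.38e-06), and 0.34% of all genes tested had a lower ratio. Pdgfrb, which encodes the beta receptor of connective tissue and perivascular cells, gave 447.4, 521 and 534.8 in iPS F65. Its mix1 signals were 60600, 68260 and 72960, again without overlap. The log2 ratio of Pdgfrb was -7.07 ± 0.03 (SD, n = 3), or 134.3-fold lower (adjusted p = 5.38e-06). The ratio of Pdgfra was further from 0 than that of Pdgfrb on each array, by 1.26 ± 0.06 (SD, n = 3) on the log2 scale.

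Of the PDGF ligand genes, Pdgfa was called lower and Pdgfb and Pdgfc could not be called. Pdgfa, whose product binds the alpha receptor, gave signals of 110.4, 147.3 and 145.1 in iPS F65. In mix1 its signals were 12400, 13890 and 14370. The channels did not overlap, and the log2 ratio was -6.67 ± 0.13 (SD, n = 3), or 101.6-fold lower (adjusted p = 7.42e-06). Pdgfb, which encodes the chain that binds both receptors, gave 43.87, 33.25 and 53.64 in iPS F65 and 23.13, 29.77 and 41.36 in mix1. These ranges overlapped, and no value was well above background, for which the lowest signals on the 3 arrays were 62.77 to 71.14 in the iPS channel and 63.38 to 73.27 in the mix1 channel. Pdgfc, whose product is secreted in latent form and binds the alpha receptor, gave 34.47, 37.42 and 36.56 in iPS F65 and 53.92, 67.65 and 66.98 in mix1. The mix1 signals of Pdgfc were above its iPS signals on all 3 arrays, at a log2 ratio of -0.79 ± 0.13 (SD, n = 3), but neither channel was well above background on any array, so this ratio was not tested.

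Csf1, the ligand gene of the macrophage receptor, was also far lower in iPS F65. Its brighter probe gave 549.9, 658.2 and 659.1 in iPS F65. The mix1 signals of that probe were 51790, 60190 and 59940. The log2 ratio was -6.53 ± 0.03 (SD, n = 3), or 92.17-fold lower (adjusted p = 5.38e-06), with no overlap between the channels. A second probe of Csf1 gave -5.87 ± 0.02 (SD, n = 3), a 58.39-fold decrease, so the probes gave the same direction and differed in size by more than the spread between arrays. The gene of its receptor, Csf1r, which marks macrophages and their precursors, was lower by less. Csf1r gave 523.9, 621.7 and 613.7 in iPS F65 and 2136, 2410 and 2359 in mix1, at a log2 ratio of -1.97 ± 0.05 (SD, n = 3; adjusted p = 1.09e-05).

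**Figure D2:**
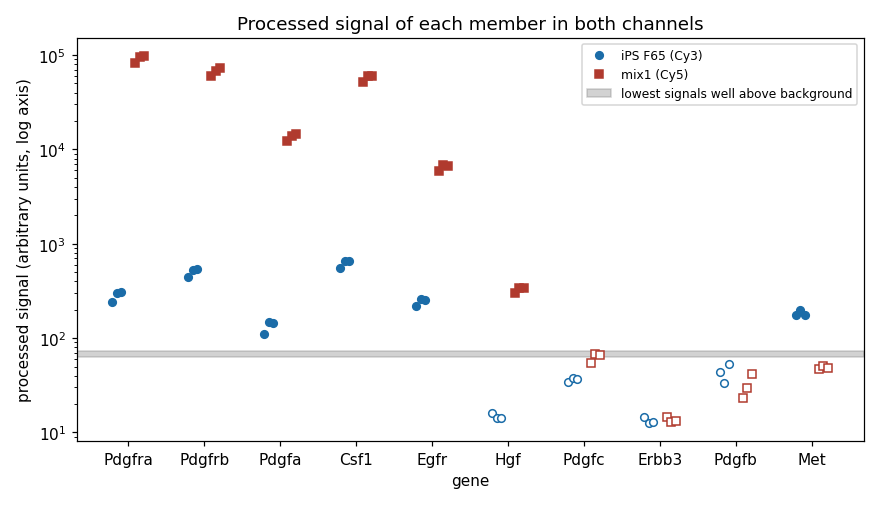
Processed signal (y axis, log axis, arbitrary units) of the probe that stands for each of the 10 genes (x axis), with 3 points for iPS F65 (circles) and 3 for mix1 (squares), 1 for each array. Filled points are well above background on all 3 arrays of that channel, and the grey band spans the lowest signals that were. Signals may be compared between channels within a gene, not between genes; Hgf in iPS F65, Met in mix1 and both channels of Pdgfc, Erbb3 and Pdgfb are open.

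The HGF ligand and its receptor went in opposite directions, and each was well above background in only 1 channel. The probe of Hgf was spotted 10 times on each array. In mix1 the mean Hgf signal was 300.6, 343.5 and 336.4 on the 3 arrays, and all spots used were well above background. In iPS F65 it was 16.19, 14.21 and 14.23, and the scanner software had replaced each of the 8, 9 and 10 spots used there with a surrogate value near its noise. The spots within an array spread by an SD of 0.08, 0.15 and 0.18 in log2 ratio, of the same order as the SD of 0.21 between the arrays. The fitted log2 ratio of -4.46 (adjusted p = 3.18e-05) therefore rests on surrogate values. Set against the dimmest iPS signals still well above background, Hgf was at least 4.96-fold lower in iPS F65. Such a bound, here and below, sets the brighter channel's normalised mean against that dimmest level and is open to dye bias. It holds only for the scanner software's processed signals. The normalised mean of Hgf was a log2 level of 8.35 in mix1, which was measured. The 3.89 in iPS F65 was a mean of surrogate values and not a measured level.

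Met, the HGF receptor gene, gave 174.9, 200.1 and 177.5 in iPS F65, all well above background. Its mix1 signals of 47.26, 50.25 and 48.32 were below every iPS value and not well above background on any array. The log2 ratio was 1.92 ± 0.06 (SD, n = 3; adjusted p = 1.81e-05). As a bound from the processed signals, Met was at least 2.74-fold higher in iPS F65. This call was lost in 3 settings that changed both the background correction and, to loess, the dye normalization, so the part of each was not separated. The log2 ratio of Met was 0.86 with normexp and uneven local backgrounds replaced, 0.86 with no background subtraction and 0.34 with normexp and local backgrounds as given (adjusted p = 0.267). All 3 ratios lay below the bound of Met, 1.46 on the log2 scale. The direction of Met was the same on each array and in each of these settings. Hgf kept its call with the first and second of these, at -2.44 and -2.35, and lost it with the third, at -0.99 (adjusted p = 0.247). That last ratio was smaller in size than the bound of Hgf, 2.31 on the log2 scale.

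The ErbB receptor genes Egfr and Erbb3 differed in what could be measured. Egfr, the receptor of EGF and of TGF-alpha, had 2 probes. The brighter gave 217.8, 261 and 252.4 in iPS F65. In mix1 it gave 5870, 6839 and 6645, at a log2 ratio of -4.73 ± 0.02 (SD, n = 3), or 26.49-fold lower (adjusted p = 5.38e-06). The Egfr probe whose sequence is shown above was spotted 10 times an array, of which 7, 10 and 10 spots were used. It gave a log2 ratio of -3.69 ± 0.16 (SD, n = 3), with an SD over the spots of an array between 0.07 and 0.12. Both Egfr probes were lower in iPS F65 on all 3 arrays, but their sizes differed by more than the spread between arrays or spots. Erbb3, the receptor for neuregulins, gave 14.75, 12.73 and 12.76 in iPS F65 and 14.62, 12.77 and 13.39 in mix1. Every one of these 6 Erbb3 values was a surrogate, so no level or difference of Erbb3 was measured. Erbb2, the partner that Erbb3 needs for signalling, was measured in both channels, at 422.6, 565.6 and 490.8 in iPS F65 and 1320, 1696 and 1486 in mix1. Its log2 ratio was -1.61 ± 0.03 (SD, n = 3; adjusted p = 1.02e-05), a call lost with loess and local backgrounds as given (-1.10, adjusted p = 0.0726).

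Ordered by ratio, the tested members ran Pdgfra, Pdgfrb, Pdgfa, Csf1, Egfr, Hgf, Met. The step between Pdgfa and Csf1 was the smallest, at 0.14 ± 0.11 (SD, n = 3), and ran from 0.04 to 0.25 over the arrays, so this order was hardly larger than its spread. The place of Hgf beside Egfr is not settled, since Hgf has only a bound. The named genes whose 3 array ratios lay nearest to those of Pdgfra were Podnl1 and Adam33, at Euclidean distances of 0.05 and 0.06 on the log2 scale. Those nearest to Met were Fkbp5 and Phgdh-ps7, both at 0.03. Likeness over 3 arrays of 1 comparison shows only a similar ratio.

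**Figure D3:**
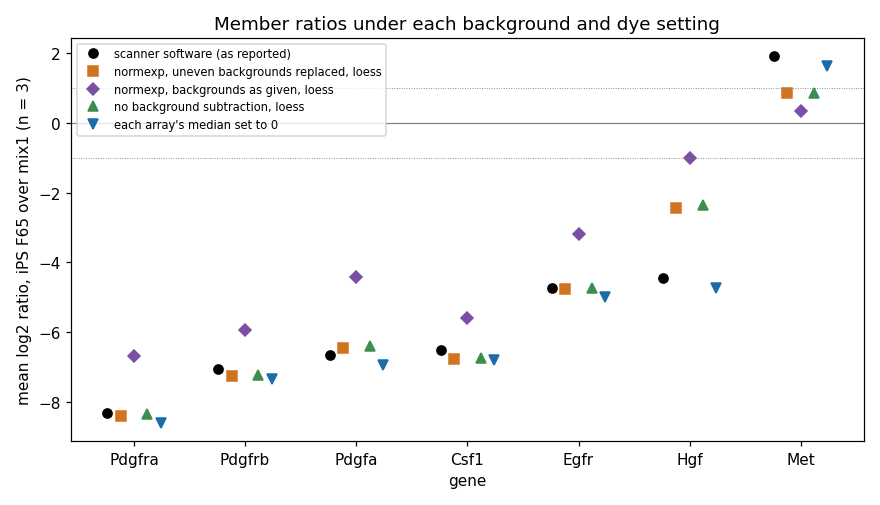
Mean log2 ratio of iPS F65 over mix1 over the 3 arrays (y axis) for the 7 tested genes (x axis) under 5 ways of correcting background and normalising the dyes, 1 symbol for each. Dotted lines mark a 2-fold change; Pdgfra, Pdgfrb, Pdgfa, Csf1 and Egfr stay below -3 under each setting, while Hgf reaches -0.99 and Met 0.34 with backgrounds as given.

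The other genes of the pathways, from lists of 84 genes by role, were lower more often than higher in iPS F65. Of 69 tested, 35 were called lower and 7 higher, against 24.5% and 30.9% of all genes. Their median log2 ratio was -1.02 against 0.25. The lists were chosen with earlier results of these data known, so this contrast with all genes is a description only. Among the ligand genes, 6 of 9 tested were lower and none higher. Ereg, which encodes the EGF receptor ligand epiregulin, was at least 19.7-fold lower, and Tgfa, which encodes TGF-alpha, was lower, at a log2 ratio of -4.73 ± 0.05 (SD, n = 3). The neuregulin gene Nrg1 followed at -2.07, a call lost when its probes were averaged (-0.84). Pdgfd was called lower at -1.02, and this call was lost without replicate 1 (-0.99) and with its probes averaged (-0.85). The gene of EGF itself, Egf, was at 0.21 and not called, and its sign turned with each array's median set to 0 (-0.06).

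Among 8 other receptors and co-receptors tested, 6 were lower and 1 was higher. The endocytic receptor gene Lrp1, which also binds PDGF receptor complexes, was lower at a log2 ratio of -6.19 ± 0.08 (SD, n = 3) and the hyaluronan receptor gene Cd44 at -2.58, and Nrp2 was at least 1.75-fold lower. The ratio of Lrp1 was -4.28 when its probes were averaged, still called lower. Kit, the receptor gene of stem cell factor and another relative of the PDGF receptors, was called higher with a fitted ratio of 2.96, although its bound was at least 1.82-fold. Of 14 genes of ligand processing tested, 7 were lower and 2 higher. The membrane metalloproteinase gene Mmp14 was lower at -7.57 ± 0.05 (SD, n = 3). The plasminogen activator genes Plau, whose product can cleave pro-HGF, and Plat were at least 17.9-fold and 40.5-fold lower. Spint1, which encodes an inhibitor of the proteases that activate HGF, was higher at a log2 ratio of 3.51 ± 0.18 (SD, n = 3), with signals of 1027, 1224 and 1218 in iPS F65 against 98.87, 112.3 and 92.75 in mix1. The convertase gene Pcsk6 was higher at 1.25. That call was lost with each array's median set to 0 (0.98), with loess after uneven backgrounds were replaced (0.85) and with loess and no background subtraction (0.85).

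The adaptors and inhibitors of these receptors were mostly called neither higher nor lower. Of 23 tested, 4 were higher, 4 lower and 15 neither, against 30.9% higher and 24.5% lower of all genes. Their median was 0.08, against 0.25 for all genes. Errfi1, an inhibitor of Egfr that its own signal induces, was lower at a log2 ratio of -3.56 ± 0.01 (SD, n = 3), the adaptor gene Shc1 at -2.65 and the PI3-kinase subunit gene Pik3r1 at -1.46. Lrig3, of a family of transmembrane proteins that act on receptor tyrosine kinases, was at least 4.07-fold higher, followed by the exchange factor gene Sos2 (1.46) and Pik3cb (1.42). The call of Pik3cb was also lost with loess after uneven backgrounds were replaced (0.88) and with loess and no background subtraction (0.89). Of 15 genes known to respond to growth factor signals, 12 were lower, at a median of -2.69, and none was higher. Ier3 (-6.17), Fos (-6.07) and Myc (-5.55) had the lowest ratios of these. With loess and local backgrounds as given, the calls of Ereg, Nrg1, Pdgfd, Nrp2, Kit, Plau, Plat, Spint1, Pik3r1, Lrig3 and Pik3cb were lost, each in the same direction, and only 21 pathway genes were lower and 2 higher.

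**Figure D4:**
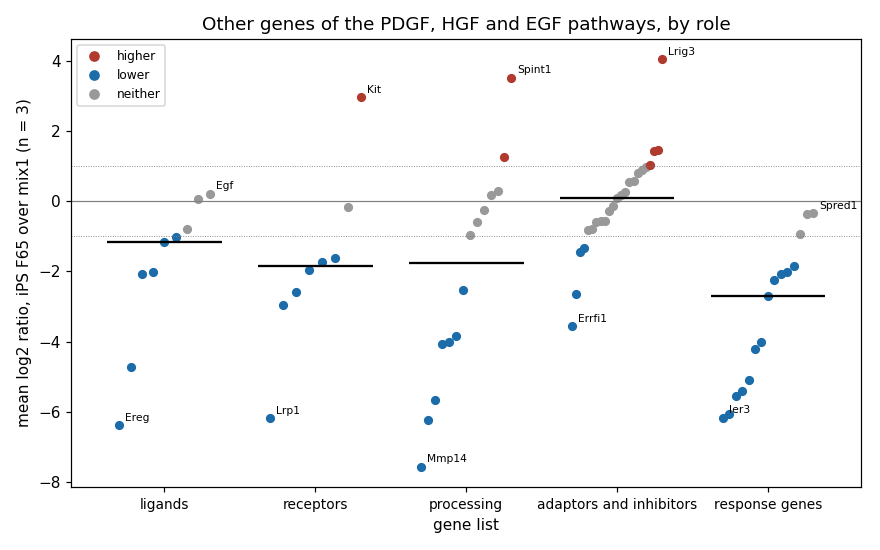
Mean log2 ratio of iPS F65 over mix1 over 3 arrays (y axis) for the 69 tested genes of the other pathway lists, by role (x axis). Each point is a gene, coloured by its call, bars mark the list medians and dotted lines a 2-fold change. The response genes have the lowest median at -2.69, and the adaptors and inhibitors lie around 0 with a median of 0.08.

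Markers of several cell types were set beside the members in the same comparison. Of 10 fibroblast markers, all were lower in iPS F65, with a median of -7.58. Postn (at least 482-fold) and Col3a1 (-10.09) had the largest fitted ratios, and the place of Postn is not settled, since it has only a bound. The summed signal of the fibroblast markers ran from 22630 to 28120 in iPS F65 and from 1867000 to 2408000 in mix1. Of these markers, 2 were not well above background in iPS F65. Of 10 macrophage markers tested, 9 were lower in iPS F65, at a median of -6.63. Mrc1 (at least 87.5-fold) and Aif1 (at least 144-fold) had the largest fitted ratios. Both have only bounds, so their place ahead of macrophage markers measured in both channels is not settled. The summed signal of the macrophage markers ran from 3174 to 4000 in iPS F65 and from 231200 to 270100 in mix1. Of these markers, 3 were not well above background in iPS F65. Of 5 markers of pericytes and smooth muscle 4 were lower, at a median of only -1.64. Tagln was at -7.32 and Cspg4 at -6.49, while the remaining markers lay between -1.64 and -0.28. Their summed signals were 1485 to 1764 in iPS F65 against 114500 to 138800 in mix1. Most of the mix1 sum was Tagln, at 103800 to 127200. The part of these cell types in the results for Pdgfra, Pdgfrb, Pdgfa, Csf1, Egfr and Hgf was not tested. A mouse transcript from the feeder cells that binds a rat probe cannot be told apart from a rat one in the iPS channel.

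All 6 tested markers of pluripotent cells were higher in iPS F65, led by Nr0b1 (4.87) and Dnmt3b (4.22), and Pou5f1 was at least 4.53-fold higher. Of 7 epithelial markers 5 were higher and 1 lower, with Epcam at least 28.3-fold higher and Ocln higher at 3.75. The lower one was the keratin gene Krt8, at -2.62. The summed signal of the epithelial markers ran from 5169 to 5902 in iPS F65 and from 791.6 to 974.3 in mix1. No epithelial cells are named among the cells of either channel, and a link between these markers and the ratio of Met was not tested. Of 4 endothelial markers, 2 were lower and 1 higher, with Eng (-4.49) and Tie1 (at least 1.65-fold) lower and Tek at least 4.16-fold higher. Of 4 markers of neural crest and glia, which often carry Erbb3, 2 were lower and none higher. Ngfr (at least 1.94-fold) had the largest fitted ratio of these, but its place is not settled, since it has only a bound. Of 6 listed markers of primitive endoderm, a lineage that expresses Pdgfra in the embryo, all had a probe but only 2 were tested. Both were lower, Dab2 at -5.35 and Gata6 at -2.93, and so few markers do not describe that lineage here.

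The promoters of a pair of ligands that were lower in iPS F65 are shown to give their sequence context, as the 250 bases before the annotated start in RefSeq's assembly GRCr8. Capitals mark a match to GGGCGG, the GC box, on either strand.
Pdgfa: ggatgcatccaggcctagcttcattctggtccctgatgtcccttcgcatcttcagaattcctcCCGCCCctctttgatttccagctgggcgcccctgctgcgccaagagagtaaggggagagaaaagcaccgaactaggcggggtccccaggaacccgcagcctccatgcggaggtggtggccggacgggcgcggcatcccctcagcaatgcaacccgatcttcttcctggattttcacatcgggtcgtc
Hgf: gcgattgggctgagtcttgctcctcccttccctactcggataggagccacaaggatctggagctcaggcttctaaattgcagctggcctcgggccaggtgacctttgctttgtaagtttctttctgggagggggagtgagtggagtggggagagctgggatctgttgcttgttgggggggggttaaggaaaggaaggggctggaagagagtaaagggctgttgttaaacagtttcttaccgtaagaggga
The Pdgfa window is chr12:20759116-20759365 on the plus strand and the Hgf window chr4:19700468-19700717 on the minus strand. Windows were available for 7 members. Those of Met, Pdgfc and Pdgfra overlapped the annotated gene, so they do not lie wholly upstream of it. GGGCGG was in 3 of the 7 windows (Pdgfa, Pdgfb and Egfr) and in 30.5% of all 33469 windows, CANNTG in 3 and in 65.5%, TGANTCA in 1 (Pdgfra) and in 6.3%, and TATAAA and GGAATG in none and in 12.9% and 12.1%. Members that were lower thus included windows with and without a GC box. GC content was 60.8% in the Pdgfa window and 54% in that of Hgf, against a median of 51.2% over all windows.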

How the data were processed

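Total RNA was measured on 3 Agilent 2-colour arrays from a single slide and scan, which leaves no batch to test. Per the file headers, Agilent Feature Extraction 9.5.3.1 made the deposited intensity values: mean and local background intensity per channel, and processed signals that the software had background-subtracted, dye-normalized and, near noise, replaced with surrogates. In the series matrix, the log2 values deposited equalled the log2 ratio of the processed signals, Cy3 over Cy5, to within 3.11e-06, with column medians of 0.003, -0.005 and -0.06. Between 57.1% and 62.1% of gene spots were well above background per array and channel, no gene spot was saturated, and the number of arrays limits the precision.

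Here the log2 ratio of processed signals was averaged over a probe's spots, without control spots and 204 to 213 outlier spots per array. A gene with several tested probes was represented by the brightest. Probes were named through RefSeq genes of GRCr8 by accession (10852 probes), gene number (1205), symbol (5538) or unique older name (3706), and 19711 kept the file's name. The mean of 3 ratios was tested against 0 with limma 3.58.1 (R 4.3.3). Mix1 is 1 control sample, so its spread is left out, and the labels do not say that the iPS samples came from separate cultures, so p-values measure only the spread between these samples. Bounds used channel levels after Aquantile normalization of the processed signals, so they hold only for those signals. With loess and local backgrounds as given, the ratios of Ereg, Nrp2, Kit, Plau, Plat and Lrig3 were also smaller than their bounds. Those of Plat, Ereg and Lrig3 were smaller too with loess after uneven backgrounds were replaced (-4.72, -4.22 and 1.83). With loess and no background subtraction they were -4.64, -4.08 and 1.85, and Plau was at -4.09, all smaller in size than their bounds. The tests were checked on simulated data. Alternatives changed the background correction (normexp with an offset of 50), normalization, filter, probe rule and arrays used.

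The members and lists were chosen with earlier results of these data known. All members are named, of each pathway list up to 3 called genes in each direction, Csf1r and Erbb2, and of each marker list up to 2 in its main direction, by size of ratio; Egf, Pdgfd, Pou5f1, Tek and Krt8 were named after their values were seen.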

Additional observations from a re-analysis of the deposited data

How the results depend on the processing

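Pdgfra, Pdgfrb, Pdgfa, Csf1 and Egfr kept their direction and call under each of the 11 alternatives. Their log2 ratios were -8.60 to -6.68, -7.34 to -5.94, -6.94 to -4.41, -6.80 to -5.58 and -5.00 to -3.18. With normexp and backgrounds as given, the SDs of these ratios between arrays ran from 1.03 (Csf1) to 1.78 (Pdgfa). In that setting the dimmer Egfr probe was at only -1.71 ± 1.35 (SD, n = 3). Hgf ranged from -4.73 to -0.99 and Met from 0.34 to 1.94, and neither was tested where a probe had to be above background in both channels. No member was called higher (0) there or with the loess settings. With loess, the genes called higher numbered 3977 with normexp and uneven backgrounds replaced, 3972 with no background subtraction and 2353 with normexp and backgrounds as given, of which the last called 2077 lower; 3229 were lower with both channels above background. Pathway genes called higher numbered 4, 4 and 2 in the same 3 settings and 4 with both channels above background, and 21 were lower with backgrounds as given. The cause of these moves was not tested, except that the filter on both channels left 17227 genes to test. Over the members and pathway genes, 775 single ratios kept their side of the threshold, 35 lost a call and 14 gained one. No called ratio changed sign, while 20 values of 7 uncalled genes did. Leaving out any 1 array moved no count of calls by over 1.5 times. No paired analysis was possible because the iPS samples are 1 group, each set against the same mix1 on its own array. The dimmest signals limit Hgf, Met, Pdgfb, Pdgfc and Erbb3.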
